A study of Mus musculus with 6 samples.

Results

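The 42 genes described here encode the contractile apparatus of smooth muscle and the related machinery of other cells: actins, myosin chains, tropomyosins, calponins, their anchors and their regulators. They were chosen by symbol, and all 42 were found among the 48397 gene symbols of the count files and passed the low-count filter. They were read in cells sorted for green fluorescence from mouse pup lungs at postnatal day 8. All pups were PdgfraEGFP/+, so the fluorescence reports Pdgfra, which encodes a receptor for PDGF on mesenchymal cells. Dams had been injected into the peritoneum at E18.5, just before birth, either with 5E1, an antibody that binds hedgehog ligands, or with control IgG, and each group has 3 RNA-sequencing libraries. All libraries, IgG included, carry the reporter allele and passed the same sort, which was meant to leave out cells without reporter fluorescence. The sort need not be pure: markers of leukocytes, endothelium and epithelium had reads in both groups. The antibody was given to the dam, not to the pups, and whether the libraries of a group came from separate pups, pools or litters is not in the labels. P-values therefore measure the spread between these libraries, which may be technical. The series title asks about hedgehog and PDGF signalling in the formation of alveolar septa.

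Contraction of smooth muscle works by myosin heads pulling on actin filaments. Calcium and calmodulin switch on the kinase encoded by Mylk, which phosphorylates the regulatory myosin light chain, and a phosphatase, itself restrained by other kinases, reverses this. Many of the genes are driven by serum response factor, encoded by Srf, together with cofactors such as myocardin (Myocd), through a promoter element called the CArG box. In the lung, smooth muscle surrounds airways and vessels, and alveolar myofibroblasts at the tips of growing septa share part of the same gene programme.

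Promoter sequences of members that fell and of members that did not show where that element stands. RefSeq promoter windows of GRCm38.p6 (mm10), from 250 bases before to 50 after a transcript start, matched 36 of the 42 members with 42 windows. Actg2, Actb, Myh11, Myocd, Tagln and Rock1 were not matched. A CArG box, searched on both strands, stood in 10 of the 42 windows (23.8%), against 1.63% of 32851 windows of all genes. It was found for 3 of the 19 matched members that fell with 5E1 (Filip1l, Myl9 and Cnn2) and for 6 of the 17 others (Actc1, Acta1, Actg1, Srf, Ldb3 and Myl6). The 200 bases before the start are printed for the 7 matched members that fell furthest, Synpo2, Actn1, Cnn1, Pdlim3, Filip1l, Myl9 and Acta2, and then for 3 actin genes that did not pass the test, with the CArG box in capitals.
Synpo2 (chr3:123236150-123236349, minus strand): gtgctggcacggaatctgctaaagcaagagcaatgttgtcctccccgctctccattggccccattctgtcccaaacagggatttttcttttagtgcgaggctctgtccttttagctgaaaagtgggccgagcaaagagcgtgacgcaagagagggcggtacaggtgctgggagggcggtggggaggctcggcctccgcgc
Actn1 (chr12:80260364-80260563, minus strand): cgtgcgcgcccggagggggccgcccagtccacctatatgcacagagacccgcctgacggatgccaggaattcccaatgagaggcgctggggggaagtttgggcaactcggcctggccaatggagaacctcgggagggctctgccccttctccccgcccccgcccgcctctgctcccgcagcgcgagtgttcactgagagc
Cnn1 (chr9:22099053-22099252, plus strand): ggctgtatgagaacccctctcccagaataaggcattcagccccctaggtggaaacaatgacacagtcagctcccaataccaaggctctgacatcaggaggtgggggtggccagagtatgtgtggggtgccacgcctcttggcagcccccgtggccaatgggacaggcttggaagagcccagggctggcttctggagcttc
Pdlim3 (chr8:45885287-45885486, plus strand): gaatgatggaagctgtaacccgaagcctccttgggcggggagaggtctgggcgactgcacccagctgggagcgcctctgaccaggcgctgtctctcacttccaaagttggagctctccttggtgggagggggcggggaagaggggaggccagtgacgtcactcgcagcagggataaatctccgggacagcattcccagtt
Filip1l (chr16:57549042-57549241, plus strand): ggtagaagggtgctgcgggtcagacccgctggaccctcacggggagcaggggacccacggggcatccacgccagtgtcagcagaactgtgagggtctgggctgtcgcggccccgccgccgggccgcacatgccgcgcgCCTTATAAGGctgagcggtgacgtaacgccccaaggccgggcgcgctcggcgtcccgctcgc
Myl9 (chr2:156775264-156775463, plus strand): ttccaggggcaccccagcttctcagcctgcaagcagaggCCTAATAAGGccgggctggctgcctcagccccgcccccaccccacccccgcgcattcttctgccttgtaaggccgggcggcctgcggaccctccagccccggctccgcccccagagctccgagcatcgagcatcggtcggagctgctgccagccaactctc
Acta2 (chr19:34255374-34255573, minus strand): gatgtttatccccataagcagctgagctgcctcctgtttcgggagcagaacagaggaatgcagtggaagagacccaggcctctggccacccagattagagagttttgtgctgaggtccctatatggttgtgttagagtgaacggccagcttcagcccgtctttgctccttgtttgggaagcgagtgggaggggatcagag
Actc1 (chr2:114052876-114053075, minus strand): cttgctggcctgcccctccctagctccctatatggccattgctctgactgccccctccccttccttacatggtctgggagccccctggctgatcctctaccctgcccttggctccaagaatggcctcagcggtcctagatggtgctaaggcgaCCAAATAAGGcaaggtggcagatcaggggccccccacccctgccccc
Acta1 (chr8:123894776-123894975, minus strand): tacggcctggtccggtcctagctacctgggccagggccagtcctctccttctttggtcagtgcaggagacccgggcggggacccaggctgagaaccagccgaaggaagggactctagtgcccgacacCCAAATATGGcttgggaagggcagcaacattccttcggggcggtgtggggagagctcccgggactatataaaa
Actg1 (chr11:120348496-120348695, minus strand): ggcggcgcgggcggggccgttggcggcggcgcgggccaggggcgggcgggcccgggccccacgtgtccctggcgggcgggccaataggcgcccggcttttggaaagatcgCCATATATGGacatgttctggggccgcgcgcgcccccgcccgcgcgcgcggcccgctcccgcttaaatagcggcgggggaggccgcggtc
The Synpo2, Actn1, Cnn1, Pdlim3 and Acta2 windows held no exact match to the CArG pattern searched: CC, then 6 letters of A or T, then GG. The match began 62 bases before the start in Filip1l (the second of its 2 windows), 161 in Myl9, 47 in Actc1, 73 in Acta1 and 90 in Actg1. Srf had 2 matches, 82 and 62 bases before its own start. The letters CATTCC, known as the MCAT element, were in 13 of the 42 windows (31%, against 14.7% of all windows). GACCACCCA, the GLI consensus, was in none (0.253% of all windows). Both were searched on both strands, and no match of one pattern overlapped a match of another. These are matches of letters, not measured binding, and nothing follows from a missing match. Near matches were not searched in any window: ccctatatgg in the Acta2 and Actc1 windows misses the CArG pattern by a letter and is not in capitals.

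Most of the 42 genes had fewer normalised reads in 5E1. With edgeR's quasi-likelihood test and Benjamini-Hochberg adjustment across the 16198 genes that passed the filter (threshold 0.05), 23 members fell, 2 rose (Mustn1 and Rock2) and 17 did not pass. Over all genes tested, 11.1% were called lower and 12.1% higher. The median log2 fold change, 5E1 over IgG, was -0.39 for the members and 0.000873 for all genes, and members ran from -1.22 (Actg2) to 0.90 (Mustn1). In 27 members every 5E1 library lay below every IgG library, an order seen in 21.4% of all genes, and in 2 every 5E1 library lay above (20.8% of all genes). In bulk RNA, fewer contractile cells in the sort and less RNA per cell cannot be told apart. Levels are given as CPM, read counts relative to the library size as scaled by TMM, and errors are SD over 3 libraries unless called standard error (SE).

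**Figure D1:**
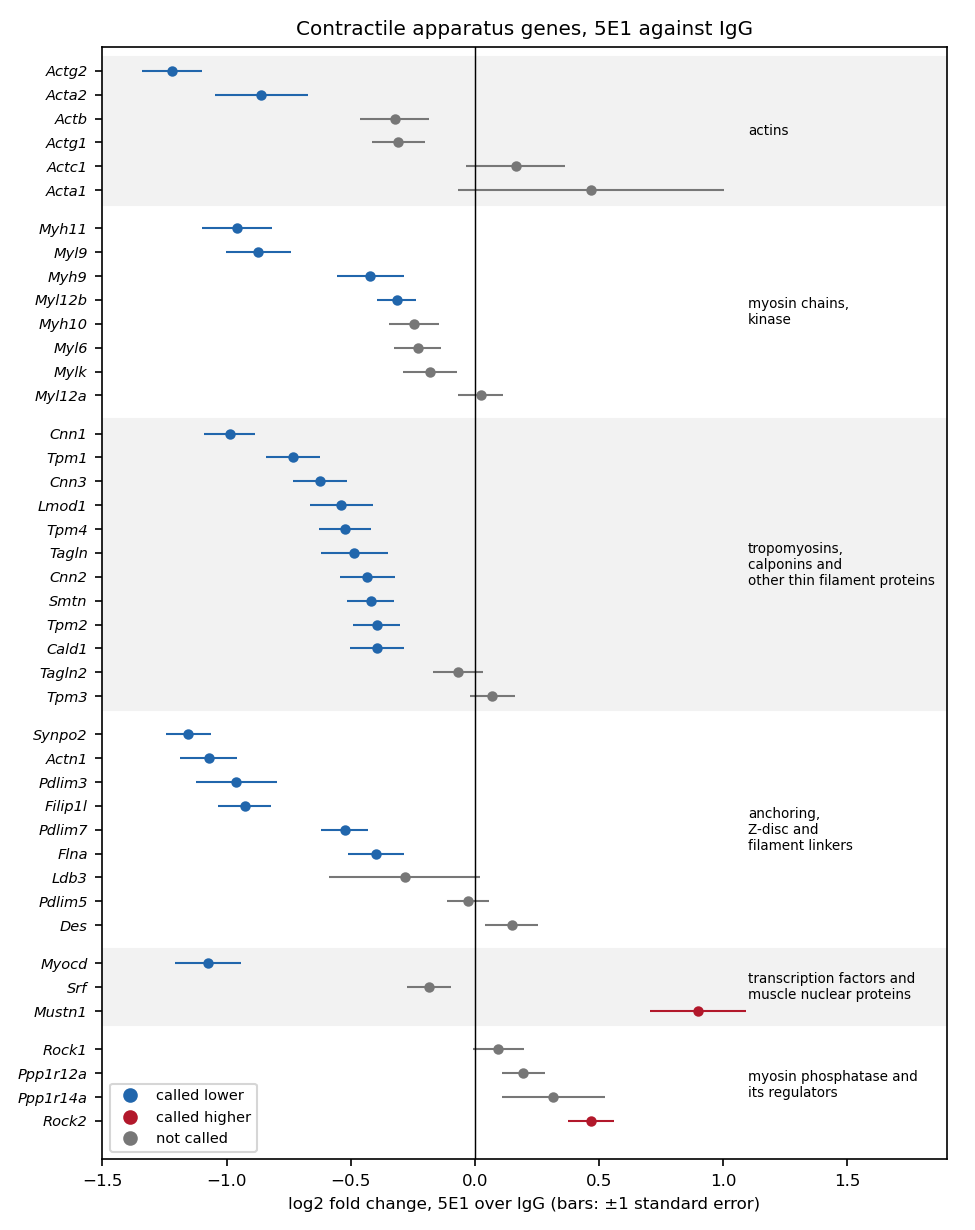
Log2 fold change of each of the 42 members, 5E1 over IgG, with bars of 1 standard error on either side, ordered by role. Blue points were called lower, red points higher and grey points not called; all called thin filament and anchoring genes lie left of 0, and the 4 genes of myosin phosphatase and its regulators lie right of it (Rock1 at -0.050 with library size alone).

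The libraries held 16958433 to 28405457 gene reads in IgG and 18857199 to 34318583 in 5E1. Reads of the 42 genes together made up 2.19%, 2.397% and 2.401% of gene reads in IgG replicates 1 to 3 and 1.75%, 1.52% and 1.45% in 5E1 replicates 1 to 3. Among the 5E1 libraries, replicate 1 held the highest value in 15 of the 23 members that fell (34.4% of all genes tested). That library and IgG replicate 3 had Y-linked reads at or below 0.109 CPM, against 195 to 209 CPM in the others. With a term for this difference 24 members fell and 2 rose, and all 25 members called without it were called again. Pdgfra, the gene of the sort, was at 502 ± 77.5 CPM in IgG and 645 ± 73.3 CPM in 5E1 (edgeR adjusted p 0.0742).

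**Figure D2:**
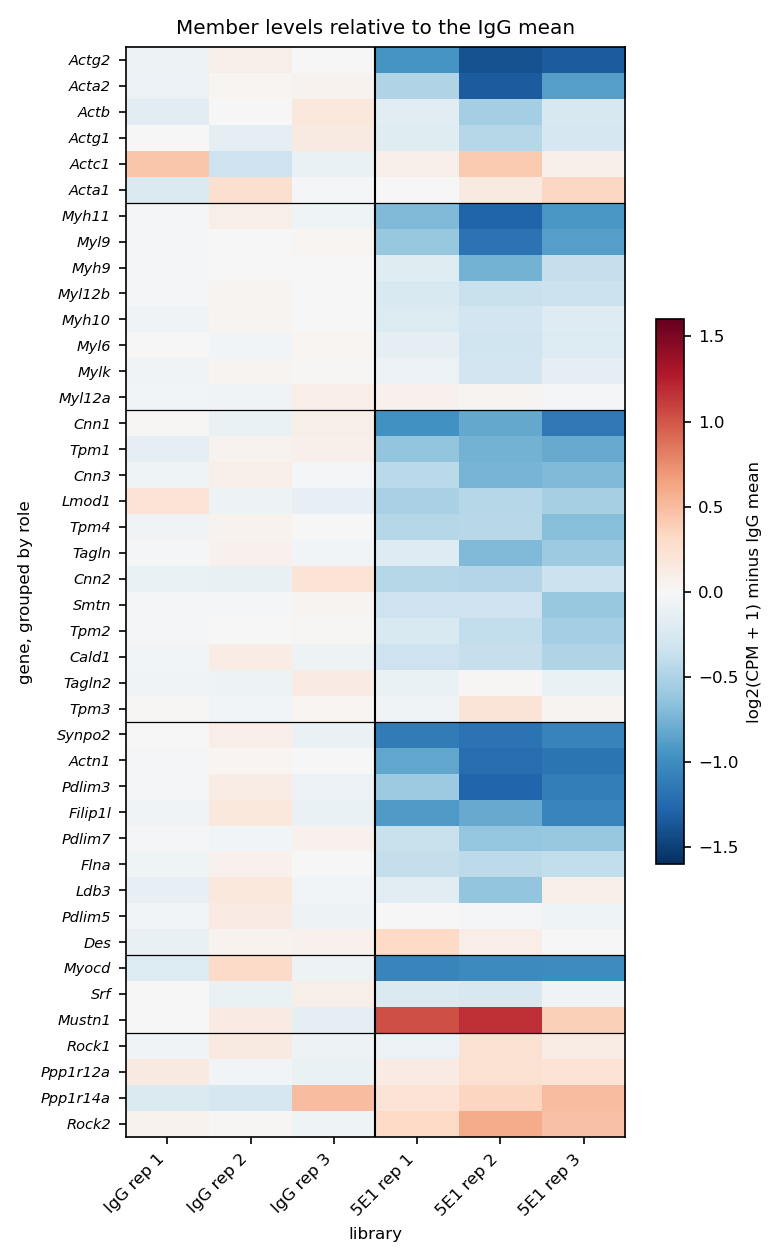
Heat map of log2(CPM + 1) of each member in each library, minus the mean of the 3 IgG libraries, with genes in rows grouped by role and libraries in columns. Blue is below and red above the IgG mean; 5E1 replicate 1 is paler than replicates 2 and 3 in Acta2, Myh11, Myl9 and Pdlim3, and Mustn1 and Rock2 are red in all 3 5E1 libraries.

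Actins form the thin filament, and of the 6 genes 2 fell and none rose. Acta2, which encodes the alpha actin of smooth muscle and myofibroblasts, was measured at 1799.7, 1961 and 1987 CPM in IgG replicates 1 to 3 and 1368, 757 and 1043 CPM in 5E1 replicates 1 to 3. The groups did not overlap, and 5E1 spread wider than IgG. Means were 1916 ± 101 CPM in IgG and 1056 ± 306 CPM in 5E1 (n = 3 each), a log2 change of -0.86 (SE 0.19, edgeR adjusted p 0.00938). Actg2, the gamma actin of visceral and airway smooth muscle, fell further, from 274, 307 and 287 CPM to 149, 109 and 115 CPM. No 5E1 library came near the lowest IgG library, and the log2 fold change was -1.22 (SE 0.12, adjusted p 0.000131). In mm10, Acta2 lies on chromosome 19 (34241090 to 34255590, minus strand) and Actg2 on chromosome 6 (83512905 to 83536265, minus strand), and no other annotated exon overlaps theirs.

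Neither gene of a sarcomeric actin passed the test. Actc1, the cardiac alpha actin, had 78.5, 45.9 and 53.3 CPM in IgG and 61.02, 77.3 and 61.2 CPM in 5E1, and the groups overlapped (log2 change 0.17, SE 0.20, adjusted p 0.601). Acta1, the skeletal alpha actin, had only 8, 14 and 13 reads in IgG and 9, 22 and 24 reads in 5E1, and a difference was not detectable at this depth (0.47, SE 0.54, adjusted p 0.567). Actb and Actg1 encode the cytoplasmic actins of every cell. Actb had 1735, 1975 and 2216 CPM in IgG and 1740.3, 1351 and 1647 CPM in 5E1, with IgG replicate 1 inside the 5E1 range. Its log2 fold change of -0.32 (SE 0.14) did not pass (adjusted p 0.117). Actg1, at 309, 276 and 339.8 CPM against 269, 224 and 255 CPM, was lower in every 5E1 library and also missed the threshold (-0.31, adjusted p 0.0606). Both passed with DESeq2 (0.0415 and 0.0324). Actins are near-identical in sequence, and multiply aligned reads stand outside the gene counts, so the split between actins is uncertain. Such reads took more of each 5E1 library than of any IgG library, but that share counts unaligned reads in the library. Unaligned reads took 31.3%, 42.9% and 32.8% in IgG replicates 1 to 3 and 36.3%, 20.4% and 26.0% in 5E1 replicates 1 to 3. Relative to aligned reads alone, the multiply aligned share overlaps between groups.

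Per kilobase of the union of a gene's exons, a scale for setting genes side by side, Acta2 was the most abundant member with a length in IgG. It had 872 ± 46.2 CPM per kb, followed by Actb (737 ± 89.7), Tagln (598 ± 25.2) and Flna (353 ± 17.03). In 5E1 the order began with Actb (589.7 ± 75.8), Acta2 (481 ± 139) and Tagln (427 ± 79.1). The order of Acta2 and Actb depends on the length used. Actb has 2679 bases in its exon union and 1920 in its longest transcript, and Acta2 has 2196 and 2035. By longest transcript Actb, with the higher mean CPM in IgG (1975 against 1916) and the shorter length, comes first in IgG too. The share of the muscle actins Acta1, Acta2, Actc1 and Actg2 among all 6 actins, in reads per kb within a library, needs no scaling between libraries. It was 57.8%, 57.1% and 54.02% in IgG and 50.2%, 44.02% and 45.2% in 5E1. All 5E1 libraries lay below all IgG libraries, and the mean went from 56.3% ± 1.99 to 46.5% ± 3.28 (exact two-sided permutation p 0.1, the smallest that 3 against 3 allows). Of all 6 actins together, Acta2 made up 44.8% ± 1.09 in IgG and 36.9% ± 4.28 in 5E1. On the same base Actg2 made up 9.56% ± 0.622 in IgG and 6.23% ± 0.506 in 5E1, and Actc1 1.91% ± 0.678 in IgG and 3.32% ± 1.08 in 5E1. Actb made up 37.7% ± 2.01 in IgG and 46.1% ± 2.67 in 5E1.

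**Figure D3:**
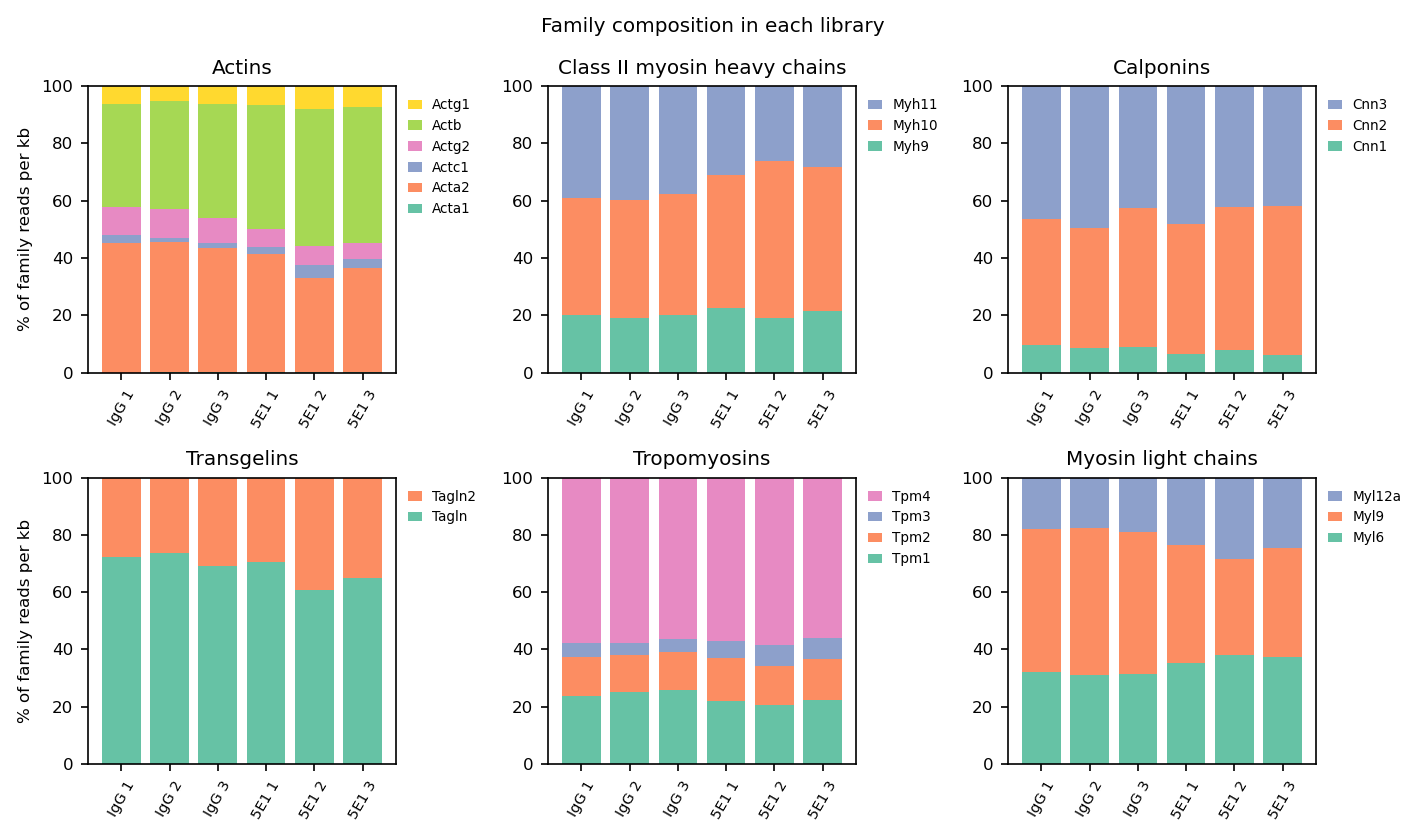
Stacked bars of the percent of reads per kb of exon that each gene takes within its family, in each of the 6 libraries, for actins, class II myosin heavy chains, calponins, transgelins, tropomyosins and the light chains with a single length. Acta2 and Actg2 with the other muscle actins take 54.02% to 57.8% of the actin bar in IgG and 44.02% to 50.2% in 5E1, and Myh11 takes less of the myosin bar in each 5E1 library.

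Myosin heavy chains form the thick filament. Myh11, the smooth muscle myosin heavy chain and a defining marker of that cell type, had 836, 912 and 810.1 CPM over the IgG libraries and 524, 349.7 and 444 CPM over the 5E1 libraries. No 5E1 library reached the lowest IgG library, and the means were 853 ± 52.9 CPM in IgG and 439 ± 87.1 CPM in 5E1, which edgeR fitted as -0.96 on the log2 scale (SE 0.14, adjusted p 0.00104). Myh9, the non-muscle myosin IIA, fell less, from 729, 741 and 741 to 643, 436 and 573 CPM (-0.42, adjusted p 0.0447). That call rests on most libraries together: with any IgG replicate left out, or 5E1 replicate 2 or 3, the edgeR adjusted p was 0.0736 to 0.108, and without 5E1 replicate 2 the fold change shrank to -0.28. Myh10, the non-muscle myosin IIB, had 1202, 1289.7 and 1255 CPM against 1074, 1005 and 1082 CPM and was not called (-0.25, adjusted p 0.107, and 0.0281 with DESeq2), though its groups did not overlap. Myh11 took 39.1%, 39.9% and 37.5% of the reads per kb of these 3 genes in IgG and 31.1%, 26.2% and 28.3% in 5E1. The mean went from 38.9% ± 1.2005 to 28.5% ± 2.49 without overlap (exact two-sided permutation p 0.1), and Myh10 went from 41.4% ± 0.779 to 50.4% ± 4.13. Myh11 lies on chromosome 16 (14194535 to 14291372, minus strand) of mm10.

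Of the 4 light chain genes 2 fell. Myl9, the regulatory light chain of smooth muscle, fell from 339, 349 and 353 CPM to 228, 153 and 188 CPM, a log2 fold change of -0.87 (SE 0.13, adjusted p 0.0012). Its IgG libraries differed little from each other and the 5E1 libraries all lay far below them. Myl12b, a regulatory light chain of non-muscle myosin, fell from 167, 175 and 169 to 144, 133 and 134 CPM (-0.32, adjusted p 0.0167), but the adjusted p was 0.0553 to 0.0573 without IgG replicate 1 or 2 or 5E1 replicate 3. Its neighbour and close relative Myl12a was not called (0.023, adjusted p 0.885). These 2 genes are annotated with overlapping exons, so their reads may not be fully separated. Myl6, the essential light chain of smooth and non-muscle myosin, was lower in every 5E1 library without passing (-0.23, adjusted p 0.106, and 0.0498 with DESeq2). Mylk, the gene of myosin light chain kinase, had 1233, 1317 and 1295 CPM in IgG and 1204, 1036 and 1152 CPM in 5E1. Its highest 5E1 library fell just short of its lowest IgG library, and the change of -0.18 (SE 0.11) was not called (adjusted p 0.254).

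**Figure D4:**
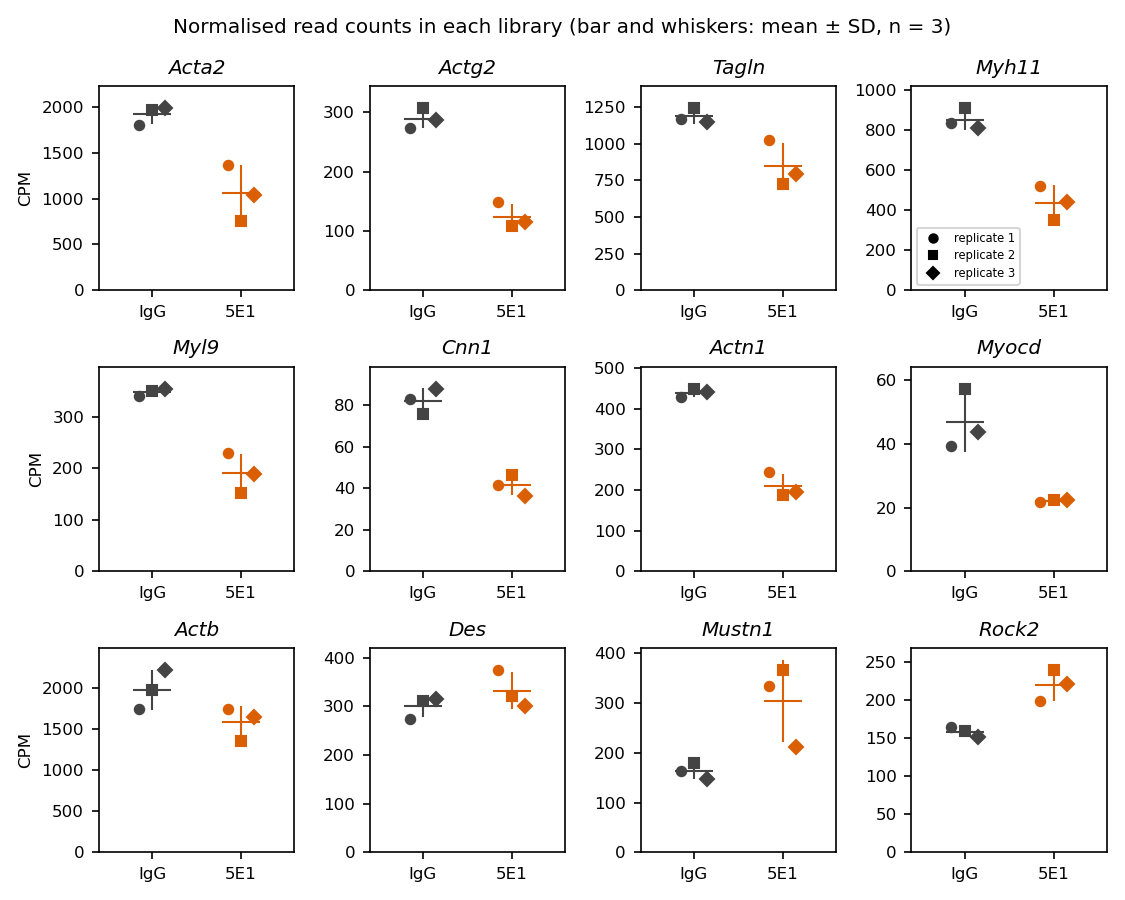
Normalised read counts (CPM, axes from 0) of 12 members in each library, with IgG in grey and 5E1 in orange, symbols for replicates, and the mean ± SD (n = 3). The 8 genes of the upper rows have no overlap between groups, Actb and Des overlap, and Mustn1 and Rock2 are higher in 5E1.

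Thin filament proteins that bind along actin had 10 of 12 genes lower and none higher. Cnn1, the basic calponin of differentiated smooth muscle, fell from 82.8, 75.8 and 87.7 CPM to 41.6, 46.2 and 36.5 CPM. Its groups stood far apart, with means of 82.1 ± 5.97 CPM in IgG and 41.4 ± 4.86 CPM in 5E1 and a log2 fold change of -0.99 (SE 0.10, adjusted p 0.000155). Cnn3, the acidic calponin, went from 439, 490.3 and 454 to 342, 274 and 283 CPM (-0.62, adjusted p 0.00266). Cnn2, the neutral calponin found in many cell types, went from 337, 334 and 421 to 263, 262 and 284 CPM (-0.43, adjusted p 0.0165, and 0.0621 without IgG replicate 3, its highest library). All 3 calponins thus fell, Cnn1 by the most. Its share of calponin reads per kb was 9.71%, 8.53% and 9.08% in IgG and 6.47%, 7.901% and 6.01% in 5E1, a mean of 9.11% ± 0.5897 to 6.79% ± 0.987 (exact two-sided permutation p 0.1). Cnn1 lies on chromosome 9 (22099216 to 22109630, plus strand) of mm10.

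Tagln, which encodes transgelin (SM22), an early marker of smooth muscle, came after Acta2 and Actb among the members per kb in IgG. It had 1169, 1245 and 1149.9 CPM in IgG and 1026, 725 and 796 CPM in 5E1, with 5E1 replicate 1 closer to IgG than to the other 5E1 libraries. Its log2 fold change was -0.48 (SE 0.13, adjusted p 0.0257), but leaving out any library other than 5E1 replicate 1 put the adjusted p at 0.0513 to 0.0806. Of its 1988 exon bases, 1349 overlap exons of Pcsk7 or Gm48529 on the opposite strand, and the strand setting of the counting is not given in the sources used here. Tagln2, a homologue expressed in many cells, had a log2 fold change of -0.069 (adjusted p 0.664). The Tagln share of the 2 genes' reads per kb went from 71.8% ± 2.37 to 65.3% ± 4.86, and here 5E1 replicate 1 (70.4%) lay inside the IgG range of 69.2% to 73.8% (exact two-sided permutation p 0.2). Tagln lies on chromosome 9 (45929619 to 45936058, minus strand).

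Tropomyosins coil along actin and gate myosin. Tpm1, which has muscle and non-muscle isoforms, fell from 867, 998 and 1016 to 619, 569 and 546 CPM (-0.73, SE 0.11, adjusted p 0.00104). Tpm4 fell from 719, 781 and 754 to 549, 553 and 467 CPM (-0.52, adjusted p 0.00552) and Tpm2, the beta tropomyosin, from 225, 229.8 and 232 to 193, 174 and 156 CPM (-0.39, adjusted p 0.0131). Tpm3 overlapped between groups (0.07, adjusted p 0.62). Counts per symbol do not separate isoforms of a tropomyosin gene. Cald1, the gene of caldesmon, which inhibits myosin on actin, fell from 1229, 1373 and 1196 to 1007, 981 and 904 CPM (-0.39, adjusted p 0.0243, and 0.0725 to 0.0884 without IgG replicate 1 or 2 or 5E1 replicate 3). Smtn, the gene of smoothelin, a protein of contractile smooth muscle, fell from 185, 184 and 192 to 148, 148 and 123 CPM (-0.42, adjusted p 0.00969). Lmod1, the leiomodin that nucleates actin in smooth muscle, was low at 27.2, 21.8 and 21.1 CPM in IgG and 15.9, 16.7 and 15.8 CPM in 5E1. It fell by 0.54 on the log2 scale (adjusted p 0.0121, and 0.0694 without IgG replicate 1, its highest library).

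Anchoring proteins tie the filaments to dense bodies and adhesions, and 6 of these 9 genes fell. Synpo2, which encodes the actin-bundling protein myopodin, had 58.3, 62.9 and 54.1 CPM in IgG and 26.4, 25.1 and 27.4 CPM in 5E1. The 5E1 libraries were nearly equal to each other, and with a log2 fold change of -1.15 (SE 0.092) it had the smallest adjusted p of the 42 genes, 3.95e-05. Actn1, the alpha actinin that cross-links actin, fell from 428, 448 and 439 to 245, 187 and 194 CPM (-1.07, adjusted p 0.000169). Pdlim3, a PDZ and LIM domain protein that binds alpha actinin, fell from 384, 423 and 366 to 260.3, 162 and 181 CPM (-0.96, adjusted p 0.00308). Its 5E1 replicate 1 was again the highest of its group. Filip1l, a relative of a filamin-interacting protein, fell from 359.9, 419 and 346 to 199, 213 and 179 CPM (-0.93, adjusted p 0.000276), and Pdlim7 from 172, 170.1 and 185 to 137, 114 and 115 CPM (-0.52, adjusted p 0.00321).

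Flna, the filamin that cross-links actin in most cells, had the most reads of the 42 genes, 3161, 3481 and 3319 CPM in IgG and 2551, 2483 and 2525 CPM in 5E1. It fell by 0.40 on the log2 scale (adjusted p 0.029). Leaving out any library other than 5E1 replicate 2 put that adjusted p at 0.0512 to 0.0903. Des encodes desmin, the intermediate filament protein of muscle, which also marks pericytes. It had 275, 311 and 315 CPM in IgG and 375, 322 and 301 CPM in 5E1, with overlapping groups and no call (0.15, SE 0.11, adjusted p 0.354). Pdlim5 (-0.027, adjusted p 0.846) and Ldb3, a Z-disc gene of striated muscle at 3.19 ± 0.451 CPM in IgG and 2.62 ± 0.886 CPM in 5E1 (-0.28, adjusted p 0.542), were not called.

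Of the 3 genes of nuclear proteins, 1 fell and 1 rose. Myocd, the gene of myocardin, had 39.4, 57.2 and 43.7 CPM in IgG and 21.7, 22.3 and 22.4 CPM in 5E1. All 3 5E1 libraries were close together and well under the lowest IgG library, and edgeR gave -1.07 on the log2 scale (SE 0.13, adjusted p 0.000387). Srf had 117, 108 and 124 CPM in IgG and 98.6, 96.9 and 112 CPM in 5E1, overlapped between groups and was not called (-0.18, SE 0.09, adjusted p 0.166), but was called lower with library size alone (-0.33, adjusted p 0.0152). The difference between the changes of Myocd and Srf was not tested. The genes of the other myocardin-family cofactors, Mkl1 (39.6 ± 5.14 CPM in IgG and 42.5 ± 6.14 CPM in 5E1, 0.10 on the log2 scale, adjusted p 0.623) and Mkl2 (42.6 ± 1.28 CPM in IgG and 44.5 ± 6.201 CPM in 5E1, 0.063, adjusted p 0.714), were named after their values were seen and did not pass. Myocd lies on chromosome 11 (65176561 to 65269989, minus strand) and Srf on chromosome 17 (46548329 to 46556175, minus strand). Mustn1, a small nuclear protein of muscle and skeletal tissue, went the other way, from 163, 178 and 147 CPM to 333, 366 and 210.5 CPM. Its 5E1 replicate 3 was nearest to IgG, the log2 fold change was 0.90 (SE 0.19, adjusted p 0.0129), and the call ended at 0.0538 without IgG replicate 3.

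Of the 4 genes of myosin phosphatase and its regulators, 1 rose and none was called lower. Rock2, whose kinase restrains myosin phosphatase, rose from 165, 160.2 and 151 CPM to 198, 239.8 and 221 CPM without overlap (0.47, SE 0.094, edgeR adjusted p 0.00545). Its close relative Rock1 was not called (0.095, adjusted p 0.548, and -0.050 on the log2 scale with library size alone). Neither was Ppp1r12a, the targeting subunit of the phosphatase (0.20, adjusted p 0.132), nor Ppp1r14a, its inhibitor CPI-17. Ppp1r14a had 23.9, 23.2 and 40.2 CPM in IgG and 32.9, 35.99 and 40.02 CPM in 5E1 (0.32, adjusted p 0.316). IgG replicate 3 stood apart there, and without it the edgeR adjusted p was 0.0105.

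Of the 25 calls among the members, 17 held in each of 13 alternative fits, 16 of them lower (Acta2, Actg2, Myh11, Myl9, Tpm1, Tpm2, Tpm4, Cnn1, Cnn3, Smtn, Actn1, Synpo2, Pdlim3, Pdlim7, Filip1l and Myocd) and Rock2 higher. The other 8 were Myh9, Myl12b, Cnn2, Cald1, Tagln, Lmod1, Flna and Mustn1. Each of these 8 missed the threshold in at least 1 fit.

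Other genes of the same machinery, from 2 lists that exclude the members, were more mixed. Of 53 tested further genes of smooth muscle, 12 fell (22.6%, against 11.1% of all genes) and 7 rose (13.2%, near the 12.1% of all genes). Their median log2 fold change was 0.077. Asb2, a muscle ubiquitin ligase gene, fell from 10.9 ± 1.73 to 3.49 ± 0.205 CPM (-1.64, edgeR adjusted p 0.000248). Kcnma1 (-1.56, adjusted p 0.000347) and Kcnmb1 (-1.55, adjusted p 0.00121), the pore and the smooth muscle beta subunit of the large-conductance potassium channel, fell, as did Fhl2 (-0.75, adjusted p 0.000728), a LIM protein gene. Itga8, an integrin gene of myofibroblasts, rose from 261 ± 30.4 to 483 ± 96.7 CPM (0.89, adjusted p 0.00246), and Tns1, the gene of the adhesion protein tensin, by 0.70 (adjusted p 0.00363).

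Of 32 tested SRF cofactors, partner factors and serum response genes, 15 rose (46.9%, against 12.1% of all genes) and 3 fell (9.38%, against 11.1%). Their median log2 fold change was 0.40. The list pools these kinds of gene without regard to how each acts on SRF, and the cofactor genes Mkl1 and Mkl2 did not pass. Fos, an immediate early gene, rose from 1249 ± 285 to 2732 ± 438 CPM (1.129, edgeR adjusted p 0.00201). The factor genes Mef2a (0.77, adjusted p 0.0013), Gata6 (0.63, adjusted p 0.00247) and Foxo4 (0.54, adjusted p 0.00279) rose too. Those that fell were Mef2c (-0.48, adjusted p 0.0128, 0.0517 without IgG replicate 1), Tead1 (-0.41, adjusted p 0.0175, 0.0672 without IgG replicate 2) and Mamstr (-0.63, adjusted p 0.0316). Mamstr, a cofactor of the MEF2 family, was named to complete this count after its value was seen, and 4 of the 6 fits without 1 library lost it (0.067 to 0.131). Without IgG replicate 1, 1 fell.

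**Figure D5:**
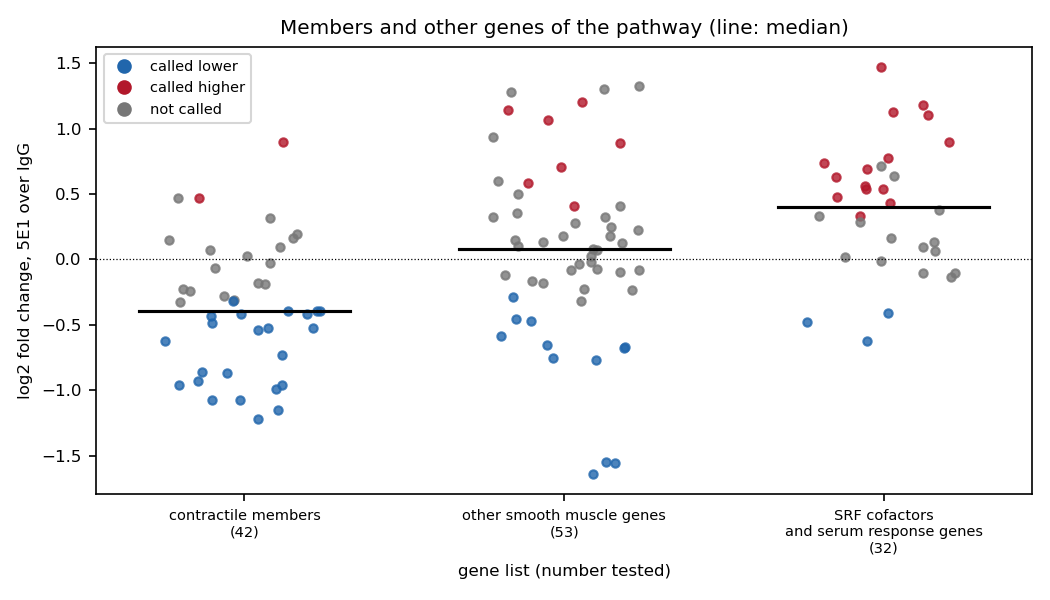
Log2 fold change, 5E1 over IgG, of each tested gene (points, coloured by call) in the 42 members and in 2 further lists, with a line at each median; horizontal positions within a list are random. The medians are -0.39, 0.077 and 0.40 from left to right.

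Lists of markers of cells that hold this apparatus differed in direction, and some of their genes are members. Of 9 airway smooth muscle markers, 6 fell and none rose, but 4 of the 9 and 3 of the 6 are members. The 5 that are not members, 3 of them lower, summed to 767 to 986 CPM in IgG and 319.8 to 339.6 CPM in 5E1. Among them, Hhip, a hedgehog-induced gene, had 521 ± 75.8 CPM in IgG and 101 ± 18.4 CPM in 5E1 and Lgr6 had 161 ± 31.4 CPM in IgG and 75.2 ± 8.22 CPM in 5E1 (edgeR adjusted p 1.84e-05 and 0.000629). Foxf1 was called as well (-0.38, adjusted p 0.0376), but its adjusted p was 0.0515 with the filter of 5 CPM and 0.0771 to 0.131 with any library other than 5E1 replicate 2 left out. Nog and Pcp4l1 did not pass. Of 17 pericyte and vascular smooth muscle markers, 6 rose and 4 fell, and the summed level was 2362 to 2597 CPM in IgG and 2333 to 2639 CPM in 5E1. The 13 that are not members, 5 higher and 2 lower, summed to 1069 to 1210.2 CPM in IgG and 1361 to 1459 CPM in 5E1. Kcnj8 (0.64), Abcc9 (0.85), Ndufa4l2 (0.95), Pdgfrb (0.40), Gucy1a3 (0.52) and Mustn1 were the 6, and Trpc6 (-2.26), Mcam (-0.67), Lmod1 and Myh11 the 4. Without IgG replicate 3, 3 rose. Every marker of both lists had reads in all 6 libraries.

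Leukocyte markers rose in 9 of 13 tested genes and fell in none, their sum being 118 to 144 CPM in IgG and 265 to 436 CPM in 5E1. Sums were 182 to 214 CPM in IgG and 206 to 401 CPM in 5E1 for 12 endothelial markers (2 higher, none lower), 442 to 696 CPM in IgG and 495 to 1510.4 CPM in 5E1 for 12 epithelial ones (2 higher, none lower) and 47.4 to 88.6 CPM in IgG and 127 to 248 CPM in 5E1 for 6 mesothelial ones (2 higher, none lower). Platelet and erythroid markers summed to 122 to 144 CPM in IgG and 187 to 849 CPM in 5E1 (3 of 7 tested higher, none lower). The upper ends of some ranges were not shared by all 5E1 libraries. In 5E1 replicates 1 to 3 the epithelial sums were 532, 1510.4 and 495 CPM. The platelet and erythroid sums were 260, 187 and 849 CPM there, and the endothelial sums 257, 401 and 206 CPM. Where no gene of a marker list or role was called in a direction by edgeR, the count at an unadjusted p under 0.05 was 0 as well. For 14 alveolar myofibroblast markers, 4 of them members, 8 lower and 5 higher, the sum of 35916 to 47363 CPM in IgG and 54685 to 65732 CPM in 5E1 is mostly Eln. Of the 10 that are not members, 5 were lower and 4 higher, so this list was split in direction. The part of any of these cell types in the fall of the contractile genes was not tested.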

How the data were processed

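Per the labels' protocols, live EGFP-positive lung cells were sorted and libraries made with a stranded poly(A) kit. For each of 6 libraries the authors deposited a table of unnormalised read counts by gene symbol. The tools named, per the submitters' processing notes, are HTSeq 0.6.0, STAR 2.5.0c, R 3.5.1, bedtools 2.17.0, Picard 1.126 and DESeq2 1.10.0, and the build is mm10; the notes say nothing of their roles. The sources used here do not give the annotation, the strand setting or the handling of duplicates. HTSeq summary lines were left out of library sizes: unaligned reads took 20.4% to 42.9% of a library and ambiguous ones 1.94% to 2.66%. Multiply aligned reads took 5.27% to 5.40% in IgG and 5.70% to 6.26% in 5E1. Reads in no feature took 4.60% to 5.37% in IgG and 6.17% to 7.15% in 5E1. As shares of all reads, unaligned ones included, neither of these overlapped between groups. Relative to aligned reads alone, the multiply aligned share overlaps and the share in no feature does not.

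Genes passing filterByExpr (minimum count 10, minimum total 15) were fitted in R 4.3.3 with edgeR 4.0.16 (TMM scaling, robust glmQLFit and a two-sided glmQLFTest of the group). Log2 fold changes use a prior count of 0.125, and SE is the coefficient over the square root of F. The fit was tested on simulated data. Exon-union lengths, positions and overlaps are from GENCODE M21 (GRCm38, mm10). Myl12b has 2 entries there and got no length. Shares within a family were tested by exact permutation. Replicates of a group differed by 16.1 to 55.8 chi-square per degree of freedom, so none was counted as a copy. The labels do not pair samples by replicate number. Correlations of same-numbered deviations were -0.166, 0.01 and -0.0657, which with 3 libraries a group cannot exclude a pairing.

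The fit was repeated with DESeq2 1.42.0, RLE size factors, library size alone, no filter, at least 5 CPM in 3 libraries, the replicate block, a Y-linked term, and each library left out. Alternatives for markers and other genes outside the members were added after seeing the data. The members, gene lists and tests were chosen with earlier results of these data known. The naming rule gives values in every library for 20 fixed members and every other called one, and for each further list the 4 smallest p plus 2 of the opposite direction. Promoters are printed for the 7 matched called members of largest fold change (Acta2 among them) and the other 3 matched actins, and of the 2 Filip1l windows for the one with a CArG box. A planned further gene list and 1 marker gene are not reported here.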

Additional observations from a re-analysis of the deposited data

How the results depend on the processing

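Depth limits Acta1 most, with 8 to 24 reads per library. Members that fell numbered 20 to 29 and members that rose 2 with all libraries under the other settings, and 17 to 22 and 2 with a library left out. With library size alone the all-gene median shifted by -0.143 (log2), calls split into 1312 higher and 3274 lower (28.6% higher, against 52.3%), and 29 members fell. All genes called numbered 2305 to 3704 with a library left out (2497 without IgG replicate 1, 2305 without IgG replicate 2, 2410 without 5E1 replicate 3), against 3757. Further smooth muscle genes that rose numbered 11 both with DESeq2 and without the low-count filter (5 to 9 with a library left out). SRF-related genes that fell were 5 with library size alone (1 to 3 with a library left out). With the block 20 members fell, the adjusted p of Myh9 (0.0517), Cald1 (0.0532) and Flna (0.0802) lying above the threshold, and no other member's call changed. With it 3220 of all genes were called. The labels do not pair the replicate numbers, and the correlations cannot settle whether they are paired. IgG replicate 1 correlated best with 5E1 replicate 3 (0.181).

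Log2 fold changes near 0 changed sign for genes that were not called. With library size alone this held for Myl12a (-0.12), Tpm3 (-0.074), Rock1 (-0.050), Mkl1 (-0.048) and Mkl2 (-0.081), and with the filter of 5 CPM for Pdlim5 (0.0045). With a library left out, Myl12a ran from -0.013 to 0.072 (-0.00039 without IgG replicate 1), Tpm3 from -0.0045 to 0.13, Pdlim5 from -0.071 to 0.033, Mkl1 from -0.019 to 0.21, Mkl2 from -0.041 to 0.16 and Pcp4l1 from -0.67 to 0.069. The cause was not tested. Family shares kept their direction with other lengths and with each library left out: muscle actins changed by -11.7 to -8.57 percentage points, Myh11 by -11.6 to -8.67, Cnn1 by -2.87 to -1.92 and Tagln by -9.06 to -4.23, the last extreme without 5E1 replicate 2.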

Other observations

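Markers of striated muscle other than the sarcomeric actins Actc1 and Acta1 had low levels. Of 29 such markers, 17 were under 1 CPM on average, Myh4 and Tnnc2 had no reads, and 19 were tested, of which 4 rose and none fell. The atrial light chain gene Myl7 had 4.05, 2.07 and 2.505 CPM in IgG and 7.55, 10.003 and 6.701 CPM in 5E1 (log2 fold change 1.47, edgeR adjusted p 0.00353), and the cardiac heavy chain gene Myh6 had 4.84, 3.42 and 2.29 CPM and 7.23, 11.4 and 6.48 CPM (1.25, adjusted p 0.0151). Neither overlapped between groups. Myoz2 (2.11) and Ckm (2.59) were the other 2. The summed level of the list was 39.2 to 50.9 CPM in IgG and 61.2 to 75.7 CPM in 5E1. With the filter of 5 CPM or without IgG replicate 2, 2 of these markers rose. Actc1, which is outside this list, had 59.2 ± 17.1 CPM in IgG and 66.5 ± 9.37 CPM in 5E1. That is near or above the summed level of the whole list, and which cells its reads came from was not tested.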
